A study of Mus musculus with 18 samples.

Results

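The genes described here encode the factors that transcribe replication-dependent histone genes and form the ends of their mRNAs. The set has 10 members: Npat, Casp8ap2, Slbp, Zfp473, Lsm10, Lsm11, Cpsf3, Cpsf2, Sympk and Eri1. They were chosen by function, though with earlier results of these data known. Each was represented by 1 RefSeq coding transcript, the one with the highest mean count where a gene had several. They are 10 of the 14797 genes in the mRNA table and 10 of the 13918 in the RNAome table. All 10 were in both tables and passed the filter on low counts in both, so no member was lost.

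All samples were embryonic stem (ES) cells of the mouse strain C57BL/6 at passage 19 to 22, and all of them, controls included, were deficient in HPRT, an enzyme that salvages purines. The treated samples received 2.5 µM cisplatin, a platinum compound that crosslinks DNA, and the controls received the same volume of the solvent DMSO. The sources used here give no length of exposure. Total RNA of 3 cisplatin samples (8.3.3, 8.4.3 and 8.5.3) and 3 control samples (8.4.16, 8.5.16 and 8.6.16) was sequenced as mRNA, with a kit that selects poly(A) RNA, and as RNAome libraries, made from fragmented total RNA after depletion of ribosomal RNA. The cultures had been kept on feeder cells before a passage on gelatin, so RNA of feeder cells could be present.

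Replication-dependent histone mRNAs are the main animal mRNAs that end in a conserved stem-loop and not in a poly(A) tail. NPAT, a target of cyclin E and CDK2, and CASP8AP2 (also called FLASH) act at the histone locus body, where the genes are transcribed. SLBP binds the stem-loop, the U7 small nuclear RNA pairs with a purine-rich element downstream of it, and the histone cleavage complex, with the CPSF3 nuclease, cuts between them. SLBP then stays with the mRNA, serving its translation and, at the end of S phase, its decay, in which the exonuclease ERI1 takes part.

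The target of these factors is shown first, because SLBP and ERI1 bind it directly. The lines below give the stem-loop, in capitals, with 5 flanking bases on each side, in 3 histone genes chosen by the smallest adjusted p in RNAome sequencing. They were read from NCBIM37, the assembly also called mm9.
H1f2 (chr13:23831376-23831401, plus strand): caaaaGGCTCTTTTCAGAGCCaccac
H1f4 (chr13:23713646-23713671, minus strand): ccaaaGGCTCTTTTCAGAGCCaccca
H2aw (chr11:58768669-58768694, plus strand): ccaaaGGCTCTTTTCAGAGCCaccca
The stem-loop letters were the same in the 3 genes, but they were found with a search pattern that fixes most of these letters in advance. The U7 snRNA (Rnu7), which carries the LSM10 and LSM11 proteins, follows. Its first capitals are part of the stretch that pairs with histone pre-mRNA, and the second are part of the site that binds the ring of Sm and LSM proteins.
Rnu7 (chr6:124691243-124691304, minus strand): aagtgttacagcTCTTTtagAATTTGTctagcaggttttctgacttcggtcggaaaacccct

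Counts summed over tested genes ran from 9502794 to 14821682 per mRNA library and from 4990985 to 19331955 per RNAome library, with the control 8.4.16 library the shallowest in both. In RNAome sequencing the TMM scaling factors (trimmed mean of M values, a correction for composition) ran from 0.628 in cisplatin 8.5.3 to 1.40 in control 8.6.16, so library composition varied there within groups. As checks of the labels, Hprt stood at 0.764 to 1.17 CPM (the usual unit of counts scaled to library size, here with TMM) in mRNA sequencing, and the p53 target Cdkn1a rose by 1.16 ± 0.09 (log2, ± SE; adjusted p = 5.44e-07). All 8 ES cell markers were in both tables, with Pou5f1 at 1175 to 1238 CPM in mRNA sequencing. Summed ES cell markers were 4303 to 4534 CPM under cisplatin and 4995 to 5255 in controls, and 6 of the 8 fell (75%, beside 19.2% of all genes). Of 12 fibroblast markers for feeder cells, 10 were measured in mRNA sequencing. Their sum was 164.9 to 230.0 CPM under cisplatin and 183.1 to 217.1 in controls. Of the 10, 1 was higher (10%, beside 18% of all genes) and 0 were lower. The higher one was Mmp2, a matrix protease (log2 change 0.57 ± 0.13). For Lum and Dcn no row was found in either assay, and for Col1a1 and Col3a1 none in RNAome sequencing. The part of these shifts in the results below was not tested.

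Cisplatin exposure left the mRNAs of most of these factors within a narrow range. In mRNA sequencing, 2 of the 10 passed the test (edgeR's quasi-likelihood test, adjusted p under 0.05): Lsm10 was higher and Cpsf2 lower. Among all 14083 genes tested, 37.2% passed, 18% higher and 19.2% lower. Neither call held each time a library was left out. The median log2 change of the members was -0.01, beside 0.01 for all genes, and the median size of the change regardless of sign was 0.13, beside 0.21. In bulk RNA a lower level can mean fewer cells that express a gene or less RNA in each, and these cannot be told apart.

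**Figure D1:**
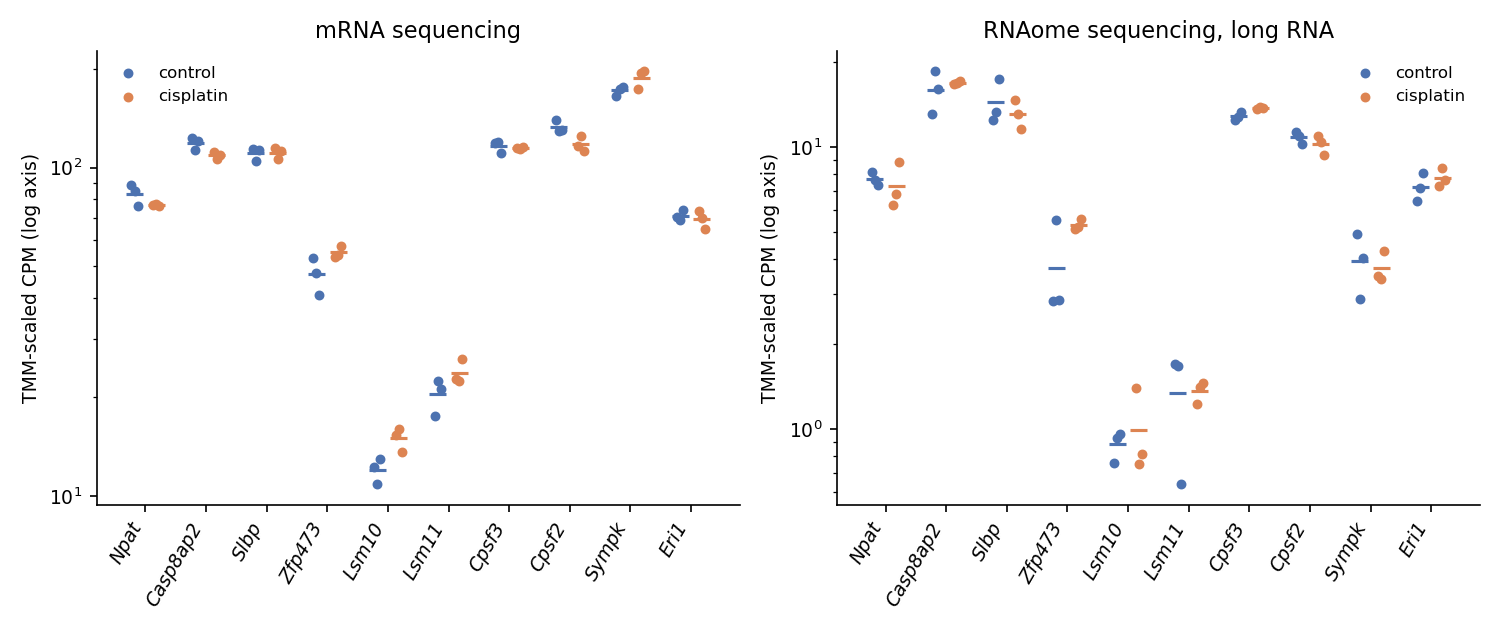
Level of each factor in each library (TMM-scaled CPM, log axis) in mRNA sequencing (left) and in the long RNA of RNAome sequencing (right). Points are libraries (3 control in blue, 3 cisplatin in orange) and short bars are group means. In mRNA sequencing the groups were apart for Lsm10 and Zfp473 (cisplatin higher) and for Cpsf2 and Casp8ap2 (cisplatin lower).

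The transcription factors of the set came first in the pathway. Npat (chr9:53345152-53382447, plus strand) encodes the coactivator of histone gene transcription. Its mRNA stood at 77.0, 77.6 and 76.3 CPM in the cisplatin libraries and at 88.6, 84.6 and 76.6 CPM in the controls. The control library 8.6.16 was at the level of the cisplatin libraries, so the groups overlapped. The log2 change of Npat was -0.11 ± 0.06 (95% interval -0.25 to 0.03, adjusted p = 0.199). Without control 8.6.16 it passed the test, at -0.17 with an adjusted p of 0.0378, while over all 13 settings tried the adjusted p ran from 0.0378 to 0.498.

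Casp8ap2 (chr4:32702453-32740240, plus strand) encodes the scaffold that binds NPAT and LSM11 and brings the cleavage complex to the pre-mRNA. It was measured at 111.5, 106.3 and 109.2 CPM under cisplatin and at 123.2, 113.3 and 120.1 CPM in controls. Every cisplatin library lay below every control library, yet the difference of -0.12 ± 0.06 (log2, 95% interval -0.24 to -0.01) did not pass the test (adjusted p = 0.0944). Groups that did not overlap were common: this held for 48.7% of all genes, and for 4 of the 10 members.

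Slbp (chr5:33977601-33995223, minus strand) encodes the stem-loop binding protein. Its level was 114.9, 106.3 and 112.0 CPM in cisplatin libraries and 113.6, 104.9 and 113.3 CPM in controls. The ranges of the groups nearly coincided. The log2 change was 0.01 ± 0.06, with a 95% interval from -0.12 to 0.13 that corresponds to a change of -7.79% to 9.45% (adjusted p = 0.943). The sign of so small a value changed with the scaling, the tool and the library left out, from -0.03 to 0.04.

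In mRNA sequencing the U7 particle and its partner protein had the members with the highest log2 changes. That order did not hold in RNAome sequencing, where Lsm11 was at 0.06 and Cpsf3 and Eri1 at 0.09. In mRNA sequencing Lsm10, Lsm11 and Zfp473 also had the largest standard errors of the members, and of them only Lsm10 passed. Lsm10 (chr4:125773867-125775828, plus strand) encodes an LSM protein that takes the place of a common Sm protein in the U7 ring. It stood at 15.3, 16.01 and 13.6 CPM under cisplatin and at 12.2, 10.9 and 13.0 CPM in controls. The lowest cisplatin library lay just above the highest control. Lsm10 rose by 0.33 ± 0.12 on the log2 scale (95% interval 0.08 to 0.58, adjusted p = 0.0412), from 12.02 ± 1.06 to 15.0 ± 1.26 CPM (SD, n = 3). It rested on 112 to 221 counts per library, the fewest among the members. The call held in 7 of the 13 settings, including 2 of the 6 that left out a library, with adjusted p from 0.0252 to 0.162. It was lost with DESeq2, without the low count filter, and without cisplatin 8.3.3, cisplatin 8.4.3, control 8.4.16 or control 8.5.16.

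Lsm11 (chr11:45741771-45758437, minus strand) encodes the other LSM protein particular to U7, which binds CASP8AP2. Its level was 22.7, 22.4 and 26.1 CPM in cisplatin libraries and 17.5, 22.4 and 21.2 CPM in controls. The groups met at control 8.5.16, and the log2 change of 0.20 ± 0.11 (95% interval -0.03 to 0.43) did not pass the test (adjusted p = 0.160). Zfp473 (chr7:51986851-52006420, minus strand) encodes the zinc finger protein known in human as ZNF473 or ZFP100, which binds SLBP together with its RNA and contacts the U7 particle. It was at 53.5, 54.2 and 57.7 CPM under cisplatin and at 53.2, 47.8 and 41.0 CPM in controls. All cisplatin libraries were above all controls, the nearest pair being cisplatin 8.3.3 and control 8.4.16. Its log2 change of 0.22 ± 0.09 (95% interval 0.04 to 0.41) missed the threshold (adjusted p = 0.0519). It passed in 2 of 13 settings, with adjusted p from 0.0169 to 0.181.

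The U7 snRNA itself, a short RNA polymerase II product that is no member of the set, was counted in the same tables under Rnu7. In mRNA sequencing it stood at 15.3, 17.9 and 18.7 CPM under cisplatin and at 15.1, 16.4 and 18.3 CPM in controls. The groups overlapped throughout, and the log2 change was 0.05 ± 0.11 (adjusted p = 0.745). In RNAome sequencing it was at 10.7, 12.3 and 30.5 CPM under cisplatin and at 13.99, 15.5 and 9.16 CPM in controls. Cisplatin 8.5.3 was far above the rest, so the log2 change of 0.44 ± 0.31 (adjusted p = 0.585) turned to -0.16 without it. In the small RNA counts of the RNAome libraries, Rnu7 was at 35.9, 37.0 and 18.8 CPM under cisplatin and 23.0, 41.7 and 46.0 in controls. There cisplatin 8.5.3 was the lowest library. Separate small RNA sequencing of these samples gave 33.6, 38.0 and 45.8 CPM against 33.1, 33.2 and 61.7 CPM in controls. The small RNA values were not scaled by TMM and not tested.

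The cleavage complex is shared in part with the machinery that ends other mRNAs. Cpsf3 (chr12:21292158-21320917, plus strand) encodes the nuclease of both kinds of cleavage. It was measured at 114.6, 114.1 and 115.2 CPM in cisplatin libraries and at 119.1, 119.4 and 110.5 CPM in controls. The cisplatin values lay inside the control range, with a log2 change of -0.02 ± 0.05 (95% interval -0.14 to 0.09, adjusted p = 0.795).

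Cpsf2 (chr12:103214184-103244203, plus strand) encodes the catalytically inactive partner of CPSF3. Its level was 116.6, 124.4 and 112.7 CPM under cisplatin and 139.7, 128.8 and 130.3 CPM in controls. No cisplatin library reached the lowest control. Cpsf2 fell by 0.17 on the log2 scale (SE 0.06, 95% interval -0.29 to -0.05, adjusted p = 0.0310), from 132.9 ± 5.91 to 117.9 ± 5.98 CPM (SD, n = 3). The call held in 10 of 13 settings, with adjusted p from 0.0220 to 0.142, and was lost when control 8.4.16 or either cisplatin 8.3.3 or 8.5.3 was left out.

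Sympk (chr7:19609726-19639967, plus strand) encodes symplekin, the scaffold on which CPSF2 and CPSF3 assemble. It was at 172.9, 194.0 and 196.3 CPM under cisplatin and at 164.8, 173.9 and 176.5 CPM in controls. Cisplatin 8.3.3 lay among the controls and the other cisplatin libraries above them. The log2 change of 0.13 ± 0.06 (95% interval 0.00 to 0.25) did not pass the test (adjusted p = 0.0975), and it passed without cisplatin 8.3.3 (0.18, adjusted p = 0.0213), with adjusted p from 0.0213 to 0.298 over the 13 settings.

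Eri1 (chr8:36528319-36558587, minus strand) encodes the exonuclease that trims the histone mRNA end and acts again in its decay. Its level was 73.9, 70.0 and 65.1 CPM in cisplatin libraries and 70.5, 69.2 and 74.1 CPM in controls. The groups overlapped, and the log2 change was -0.03 ± 0.07 (95% interval -0.17 to 0.11, adjusted p = 0.749). In all, 5 of the 10 members had an unadjusted p under 0.05, beside 45.4% of all genes.

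Per kilobase of the longest GENCODE transcript, which need not be the form these cells make, control levels in the mRNA expression table were highest for Slbp at 58.0 ± 2.62 CPM per kb (SD, n = 3). Cpsf3 followed at 45.4 ± 1.96 and Sympk at 41.7 ± 1.48 CPM per kb. The order of Slbp and Cpsf3 depended on the table: per kilobase, Slbp over Cpsf3 was 1.18 to 1.38 in the control libraries of the expression table and 0.957 to 1.10 in those of the abundance table. Cpsf2 stood at 25.0 ± 1.11 and Casp8ap2 at 17.5 ± 0.75 CPM per kb. Eri1 (14.1 ± 0.50), Npat (13.7 ± 1.01) and Lsm10 (12.8 ± 1.13 CPM per kb) did not differ beyond their spread. Zfp473 at 5.13 ± 0.66 and Lsm11 at 3.16 ± 0.40 CPM per kb were lowest. The RNAome expression table also had Slbp and Cpsf3 first, at 7.57 ± 1.40 and 5.02 ± 0.17 CPM per kb, and Zfp473 and Lsm11 last, at 0.405 ± 0.17 and 0.207 ± 0.09 CPM per kb. There Slbp over Cpsf3 was 1.34 to 1.76 in controls, against 0.912 to 1.19 in the abundance table, so the lead of Slbp did not hold in that table.

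In RNAome sequencing 0 of the 10 members passed edgeR's test, 0 had an unadjusted p under 0.05, and 0 passed with DESeq2. There 2.04% of all 9978 genes tested passed, 0.972% higher and 1.07% lower. The members had 4 to 382 counts per library, and standard errors of 0.15 to 0.40 on the log2 scale, against 0.05 to 0.12 in mRNA sequencing. The parts of read depth and of variation between libraries in these errors were not tested.

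Slbp was at 14.6, 13.1 and 11.5 CPM in the RNAome cisplatin libraries and at 12.5, 13.3 and 17.5 CPM in the controls. The groups overlapped, with a log2 change of -0.14 ± 0.17 and a 95% interval of -0.50 to 0.22. Zfp473 had the highest log2 change of the members there, 0.44 ± 0.24 (95% interval -0.06 to 0.95, adjusted p = 0.451). Its cisplatin libraries held 5.13, 5.22 and 5.55 CPM and its controls 2.84, 5.49 and 2.88 CPM, with control 8.5.16 among the cisplatin values. Without that library the change was 0.88 and the adjusted p 0.0831, the lowest of its 13 settings, which reached 0.848.

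Cpsf3 was the member whose groups did not overlap in RNAome sequencing, as for 19.1% of all genes. It stood at 13.6, 13.8 and 13.7 CPM under cisplatin and at 12.5, 12.8 and 13.3 CPM in controls, a log2 change of 0.09 ± 0.15 that did not pass the test. Npat was at 6.23, 6.81 and 8.82 CPM under cisplatin and at 8.13, 7.64 and 7.35 CPM in controls. The Npat groups overlapped, with the cisplatin values on both sides of the controls. Casp8ap2 was at 16.8, 16.9 and 17.1 CPM under cisplatin and at 13.0, 18.5 and 16.1 CPM in controls. For Lsm10 the values were 1.40, 0.752 and 0.818 CPM against 0.756, 0.931 and 0.959 CPM. The groups overlapped, and the 95% interval of -0.70 to 0.97 held both 0 and the change of Lsm10 measured in mRNA sequencing. Cpsf2 stood at 11.0, 10.4 and 9.36 CPM against 11.3, 10.9 and 10.2 CPM in controls, a log2 change of -0.07 ± 0.16 (95% interval -0.41 to 0.27). The other members, Lsm11, Sympk and Eri1, had log2 changes of 0.06 ± 0.36, -0.05 ± 0.24 and 0.09 ± 0.17.

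**Figure D2:**
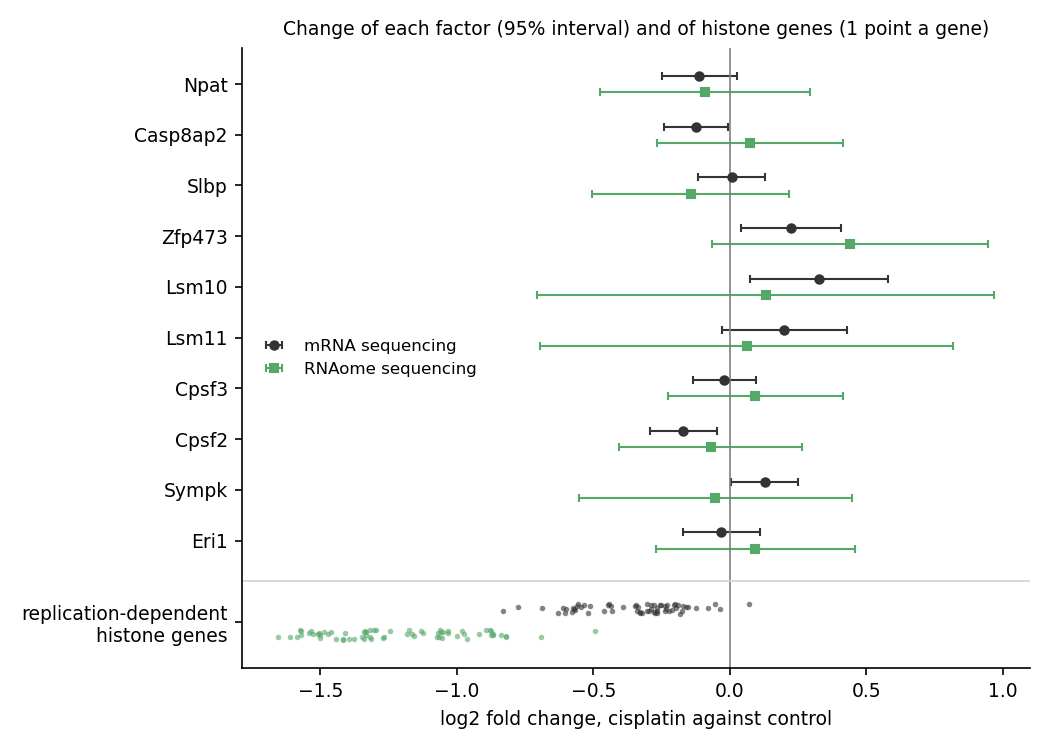
Log2 change under cisplatin for each factor, with its 95% interval, in mRNA sequencing (black) and RNAome sequencing (green), and below the line the change of each replication-dependent histone gene (1 point a gene, 63 and 67 genes). The factors lie between -0.17 and 0.44, while the histone genes have a median of -0.30 in mRNA and -1.27 in RNAome sequencing.

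Whether cisplatin acted differently on a member in the 2 assays was tested directly, as the interaction of treatment and assay over 12 libraries. By edgeR 0 of the 10 members passed, with 0 at an unadjusted p under 0.05 and adjusted p from 0.885 to 0.995. Of all 13070 genes 0% passed (0 genes, 770 at an unadjusted p under 0.05). This fit did not use the pairing of libraries made from the same RNA sample. With the sample as a block, 0 members and 13 genes passed. The widest interval among members was that of Lsm10, at -0.19 for RNAome minus mRNA (95% interval -1.01 to 0.62), and the narrowest that of Cpsf3, at 0.12 (-0.15 to 0.40).

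Intronic counts can come from unspliced RNA, which total RNA libraries hold as well. Other sources inside introns were not excluded, and the origin of these counts was not tested. In RNAome sequencing 7 members had enough intronic counts to be tested, and by edgeR 0 passed, beside 0.996% of 5419 genes. One of them, Sympk, had an unadjusted p under 0.05. Its introns held 20, 26 and 13 counts in cisplatin libraries and 2, 7 and 6 in controls. Scaled to intronic counts alone, as are all intronic CPM here, that was 0.602, 0.619 and 0.541 CPM against 0.170, 0.315 and 0.332 CPM. Every cisplatin library was above every control, with a log2 change of 1.03 ± 0.39 that did not pass the test (adjusted p = 0.240). Npat introns were at 1.96, 1.88 and 2.00 CPM against 1.78, 2.12 and 2.10 CPM, and those of Slbp at 1.51, 1.81 and 1.67 CPM against 1.36, 1.49 and 1.93 CPM. Both sets of values overlapped. In mRNA sequencing 6 members were tested by their introns and by edgeR 0 passed, 0 of them at an unadjusted p under 0.05, beside 12.9% of 7785 genes.

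Slbp differed from the other members in how it was counted. The authors deposited an expression and an abundance table for each assay, and 20.2% of the Slbp counts in the mRNA expression table and 31.0% in the RNAome table were absent from the abundance table. For the other 9 members this share was at most 3.08%. What separates the tables was not given in the sources used here. In the mRNA abundance table the log2 change of Slbp was -0.01, and its adjusted p over the 13 settings ran from 0.677 to 0.995.

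Lower values were measured for the products of the pathway. Of the replication-dependent histone genes, whose mRNAs these factors make, 56 of 67 fell and 0 rose in RNAome sequencing. The share that fell was 83.6%, beside 1.07% of all genes, and the median log2 change was -1.27. Leaving out cisplatin 8.4.3 gave 27 such genes, and leaving out cisplatin 8.3.3 gave 37. Many of these genes have near-identical copies, so they are uncertain as single genes. Some may also share reads: H2bc23 and H4bc24 had equal counts in every RNAome library. Sums over these genes may therefore count a read more than once. H1f2, a linker histone, was at 37.4, 41.2 and 39.4 CPM under cisplatin and at 114.6, 137.3 and 108.4 CPM in controls, a fall of 1.61 on the log2 scale (SE 0.17, adjusted p = 7.72e-05). H1f4, another linker histone, fell by 1.54 (SE 0.17, adjusted p = 9.16e-05), and H2aw, a core histone of the H2A class, by 1.65 (SE 0.20, adjusted p = 0.000266). All 3 carry the stem-loop printed above. The lowest log2 change among the factors was that of Slbp, -0.14, and all 67 histone genes lay below it. For 55 of them the whole 95% interval lay below that of Slbp.

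In mRNA sequencing, which selects poly(A) RNA and so captures these mRNAs poorly, 18 of 63 histone genes fell (28.6%, beside 19.2% of all genes) and 0 rose, with a median of -0.30. It was 37 without control 8.6.16, and 9 of 47 in the abundance table. The summed histone genes came to 627.6, 675.7 and 710.5 CPM under cisplatin and to 891.1, 1099.8 and 700.9 CPM in controls, so control 8.6.16 lay within the cisplatin range. In RNAome sequencing the sums were 17167, 18365 and 19712 CPM under cisplatin and 31107, 48043 and 39342 CPM in controls, with no overlap. The RNAome ratio of summed histone CPM to Slbp CPM was 1174, 1399 and 1707 under cisplatin and 2493, 3607 and 2252 in controls. Any reads shared between histone genes count more than once in these sums and ratios. The RNAome ratio was lower in every cisplatin library. In mRNA sequencing the ratio was 5.46, 6.36 and 6.34 under cisplatin and 7.84, 10.5 and 6.18 in controls, and control 8.6.16 lay within the cisplatin range. The ratios were not tested. A difference of the histone change between assays was called by edgeR for 0 of 63 genes (56 at an unadjusted p under 0.05), for 9 with the sample as a block, and for 22 without control 8.4.16.

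**Figure D3:**
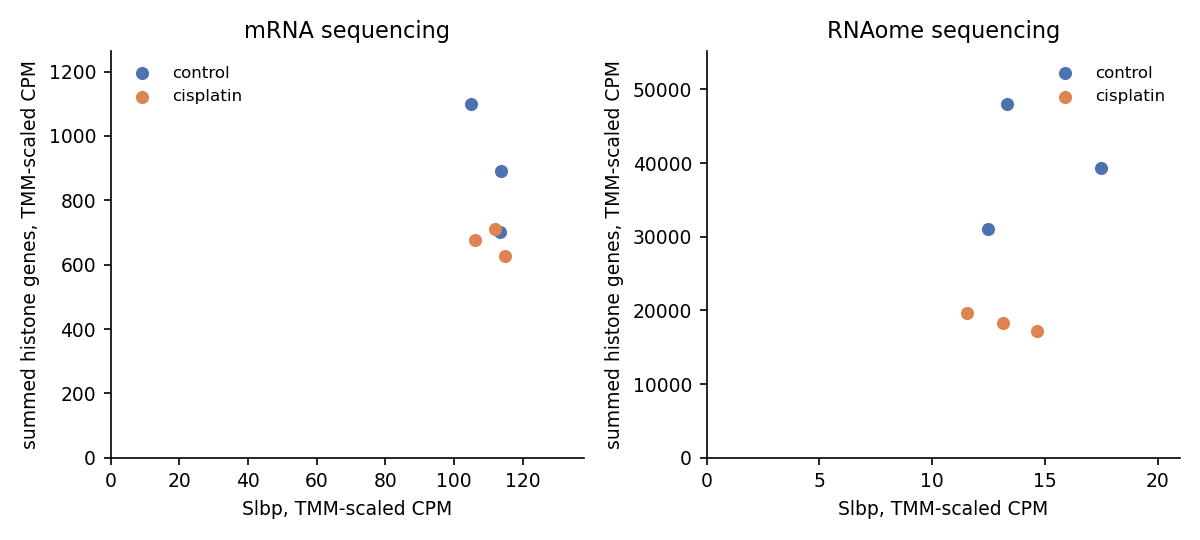
Summed replication-dependent histone genes (vertical axis) against Slbp (horizontal axis), both in TMM-scaled CPM on linear axes from 0, for mRNA (left) and RNAome sequencing (right). Each point is a library, 3 control in blue and 3 cisplatin in orange. The sums may count reads shared between histone genes more than once. Slbp overlaps between groups in both assays, while the RNAome histone sums of 17167 to 19712 CPM under cisplatin lie below the control sums of 31107 to 48043 CPM.

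The partners of the members form 6 lists with 68 genes, all measured in mRNA sequencing. There 22 passed the test (32.4%, beside 37.2% of all genes), 3 of them higher (4.41%, beside 18%) and 19 lower (27.9%, beside 19.2%), with a median log2 change of -0.07 beside 0.01 for all genes. The share that passed was thus no higher than among all genes. Among 9 partners in transcription, 4 fell and 1 rose (55.6% called, beside 37.2% of all genes). Pou2f1, the octamer factor OCT1 that acts at H2b promoters, was at 17.1, 18.3 and 17.4 CPM under cisplatin and at 31.0, 30.8 and 24.9 CPM in controls. No value of one group reached the other, and it fell by 0.71 on the log2 scale (SE 0.10, adjusted p = 8.12e-05), the lowest log2 change in these lists. Yy1, a zinc finger factor, fell by 0.31, Gon4l by 0.18, and Coil, which encodes coilin of Cajal bodies, by 0.20. The gene that rose was Ccne2, for a cyclin E that activates CDK2, by 0.22 ± 0.08 (adjusted p = 0.0471), named after its values were seen. It lost its call with any 1 of the 6 libraries left out (adjusted p from 0.0556 to 0.168). Hinfp, the activator of H4 genes, had a log2 change of 0.07 ± 0.10 (adjusted p = 0.596). With 1 library left out, Gon4l lost its call without cisplatin 8.5.3 (adjusted p = 0.0721), and Coil lost it for each library except control 8.4.16 (adjusted p from 0.0510 to 0.0972).

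Of 12 genes for the U7 ring and its assembly, 3 fell and 0 rose. The share called was 25%, beside 37.2% of all genes, of which 19.2% were lower. The 3 belong to the assembly machinery. Gemin5, the RNA-binding subunit of the SMN complex, fell by 0.25 (log2, adjusted p = 0.000704). Wdr77 and Prmt5, which together methylate Sm proteins, each fell by 0.23. Clns1a, their chaperone partner, had a log2 change of -0.12 ± 0.05 (adjusted p = 0.0601), and passed with RLE scaling (adjusted p = 0.0478), without the low count filter (0.0459) and without cisplatin 8.3.3 (0.0332).

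The complex that cleaves and polyadenylates other mRNAs shares Cpsf3, Cpsf2 and Sympk with the histone complex. Of its 15 other genes, 6 fell and 0 rose (40% called, beside 37.2% of all genes, of which 19.2% were lower). Wdr33, which contacts the AAUAAA signal, was at 135.5, 135.7 and 129.0 CPM under cisplatin and at 175.3, 168.5 and 185.1 CPM in controls. The groups were well apart, and Wdr33 fell by 0.40 (SE 0.05, adjusted p = 4.49e-05). Cpsf6 and Nudt21, which encode subunits of cleavage factor I, fell by 0.27 and 0.22, while Cpsf7, for another of its subunits and named after its values were seen, had a log2 change of -0.13 ± 0.06 (adjusted p = 0.0929). Fip1l1, which binds poly(A) polymerase, fell by 0.21. The call of Fip1l1 was lost without cisplatin 8.4.3 (adjusted p = 0.0759) or control 8.5.16 (adjusted p = 0.112).

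Of 9 genes of the cap complex and the elongation factors NELF and P-TEFb, 22.2% were called, beside 37.2% of all genes. Srrt rose by 0.15 and Ncbp1, the large cap-binding subunit, fell by 0.23. Srrt lost its call with DESeq2 (adjusted p = 0.0954), without the low count filter (0.0586), and without any one of cisplatin 8.3.3, cisplatin 8.5.3, control 8.4.16 and control 8.5.16 (0.0847 to 0.158). Of 17 genes of histone mRNA decay, 3 fell and 1 rose (23.5% called, beside 37.2% of all genes). Smg1, the kinase of UPF1, was at 195.1, 181.4 and 179.5 CPM against 249.1, 235.4 and 241.5 CPM in controls and fell by 0.38 (SE 0.05, adjusted p = 4.30e-05). Dcp2, the decapping enzyme, fell by 0.33, and Dis3, the nuclease of the exosome, by 0.24. Tut7, which adds uridines to histone mRNA ends, rose by 0.25 ± 0.07 (adjusted p = 0.0136). Dis3 lost its call when cisplatin 8.4.3 (adjusted p = 0.0506) or cisplatin 8.5.3 (0.0557) was left out, and Tut7 without cisplatin 8.4.3 (0.0577) or control 8.5.16 (0.0588). Of 6 genes for SLBP translation and turnover, Cdk1 and Ccna2 fell by 0.38 (adjusted p = 4.06e-05) and 0.31 (adjusted p = 0.000136). They make 33.3% of that list, beside 37.2% of all genes called and 19.2% lower. CDK1 with cyclin A is known to phosphorylate SLBP before its destruction at the end of S phase.

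**Figure D4:**
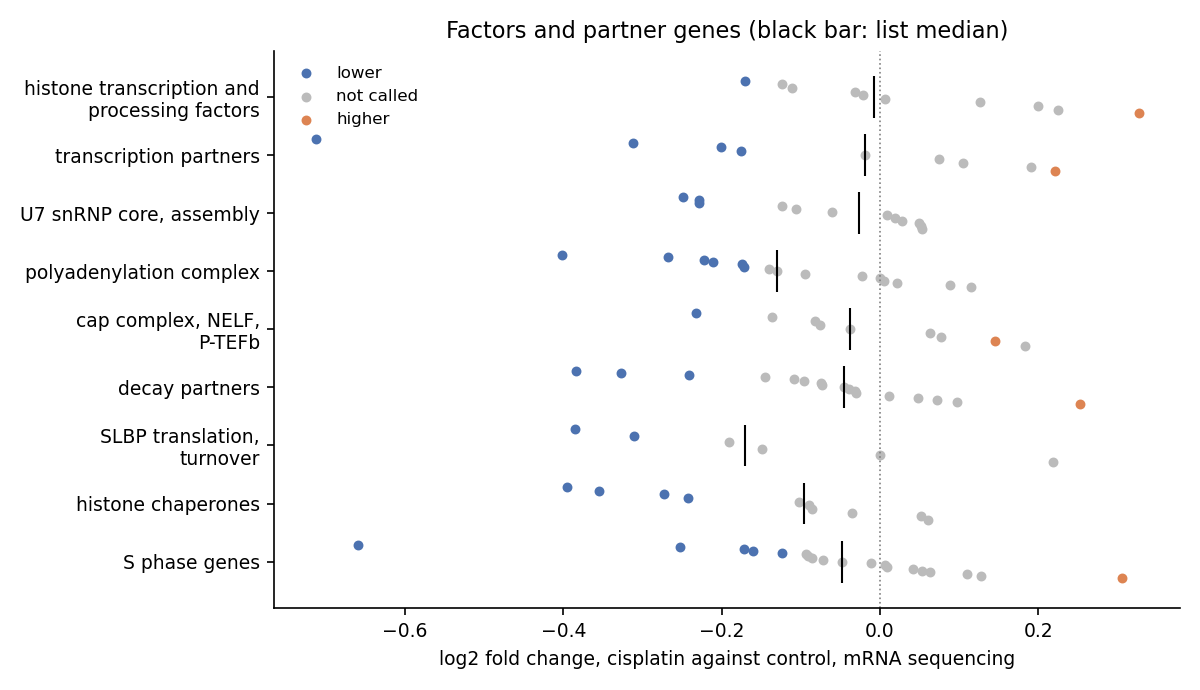
Log2 change in mRNA sequencing of the 10 factors and of each partner list, 1 point a gene, with genes that passed the test in blue (lower) or orange (higher), the others in grey, and the list median as a black bar. The 10 factors center near 0 with 1 gene passing on each side, and 19 of the 22 partner genes that passed lie below 0. Of the 68 partner genes 32.4% passed, beside 37.2% of all genes.

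In RNAome sequencing 0 of 67 partner genes passed edgeR's test, with 7 at an unadjusted p under 0.05, and 0 of 68 passed with DESeq2, with 4 at an unadjusted p under 0.05. Cdk1 came nearest, at 70.2, 69.2 and 73.3 CPM under cisplatin and 80.3, 120.4 and 109.4 CPM in controls (log2 change -0.55 ± 0.18, adjusted p = 0.147). The groups did not overlap, and Cdk1 passed without control 8.4.16 (-0.70, adjusted p = 0.0341). Tut7 had a log2 change of 0.59 ± 0.21 (adjusted p = 0.182), and Lsm6, a subunit of the ring that starts decay, one of -0.49 ± 0.18 (adjusted p = 0.199). The highest log2 change of the partner genes there was that of Hinfp, 0.62 ± 0.29 (adjusted p = 0.361). Its groups did not overlap, as for 19.1% of all genes, and it had 7 to 41 counts per library.

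Npat stands head to head with Atm, the damage checkpoint kinase gene, with 306 bases between their annotated starts in mm9. Atm (chr9:53247254-53344845, minus strand) was at 103.6, 100.2 and 93.6 CPM under cisplatin and at 117.7, 123.1 and 135.5 CPM in controls. The groups were apart, and Atm fell by 0.34 (SE 0.06, adjusted p = 0.000841), whereas Npat did not pass the test at -0.11. Whether the pair differed was not tested. The line below gives the promoter on the side of Npat, 250 bases before to 50 after its start, from the RefSeq table of GRCm38.p6. It lies at chr9:53536797-53537096 of that build, plus strand, with CCAAT (the NF-Y motif) and GGGCGG (the SP1 motif), on either strand, in capitals.
Npat: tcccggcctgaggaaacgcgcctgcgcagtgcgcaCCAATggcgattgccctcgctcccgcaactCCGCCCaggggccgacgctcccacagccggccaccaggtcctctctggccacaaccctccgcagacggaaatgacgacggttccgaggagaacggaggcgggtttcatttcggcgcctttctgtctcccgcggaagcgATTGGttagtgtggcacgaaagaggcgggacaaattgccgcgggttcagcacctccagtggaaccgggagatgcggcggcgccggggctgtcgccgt
Promoters of 9 of the 10 members were matched in that table. A member counted if any of its promoters held a motif, while the percentages are shares of single promoters. The counts and percentages are therefore not strictly alike. CCAAT was found in 5 of these members, beside 37.4% of 32851 promoters, and GGGCGG in 7, beside 35.7%. TTTCGCGC or TTTGGCGC, the E2F motif, was found in 1 (Casp8ap2), beside 0.813%. A match describes the letters and is not a binding site.

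The members also differ in length. Their annotated spans run from 1.96 kb for Lsm10 to 37.8 kb for Casp8ap2. Across the 10, Spearman's rho between span and log2 change was -0.77 in mRNA sequencing (-0.68 without Lsm10), beside -0.34 across 12921 genes, all from the same 6 libraries. The median log2 change was 0.09 for all genes under 5 kb, 0.04 for those of 15 to 40 kb and -0.27 for those over 80 kb, a group to which Atm, at 97.6 kb, belongs. In RNAome sequencing rho across the members was -0.21 (0.03 without Lsm10), beside -0.23 across 9114 genes. The medians of the same groups of genes were 0.03, 0.03 and -0.22 there. All members except Lsm10 belong to the group of 15 to 40 kb. The part of gene length in the changes of the members and of Atm was not tested.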

How the data were processed

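The values used were read counts per RefSeq transcript and per genomic region, deposited by the authors without normalization. Per the submitters' processing notes, Bowtie, TopHat and edgeR were used with build mm9. Versions, roles and the counting rule were not given in the sources used here, nor whether strand was used. No column of values went unmatched to a sample. For each gene 1 transcript was kept, one present in both long RNA tables being preferred and then the highest mean CPM. The expression tables were used.

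The test was that of edgeR 4.0.16, run in R 4.3.3 (TMM scaling, filterByExpr, quasi-likelihood test, two-sided, Benjamini-Hochberg adjustment over all genes tested, threshold 0.05), with DESeq2 1.42.0 as an alternative. CPM values of transcripts use TMM-scaled totals of tested genes. Intronic CPM values use TMM-scaled totals of intronic counts alone, so they are not on the scale of the transcript values. The small RNA values of Rnu7 use plain library totals. The steps were tested on simulated data. Intronic counts were summed over regions inside introns of GENCODE vM1 on NCBIM37. The last deposited region ended within the NCBIM37 length on all 22 chromosomes with regions. Tables were handled with Python 3.11.15 and pandas 2.3.3.

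All 10 members were named, with up to 4 genes of each other list by adjusted p in mRNA and up to 2 in RNAome sequencing, the 3 histone genes with the smallest adjusted p in RNAome sequencing, and Cdkn1a, Mdm2, Ccng1, Hprt, Atm and Rnu7. The text gives part of these. The members and lists were chosen with earlier results of these data known. Whether the samples of a group were separate cultures is not in the labels. The p-values therefore measure only how these samples vary, and that variation may be technical. The same 6 RNA samples, known by their codes, went into both assays. Deviations from group means of libraries with the same code correlated at 0.07 to 0.27 over 9825 genes.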

Additional observations from a re-analysis of the deposited data

How the results depend on the processing

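Settings tried were RLE scaling, DESeq2, no low count filter, the abundance tables, another choice of transcript, scaling without histone genes, and leaving out each library. The abundance table for introns was added after seeing the data. In mRNA sequencing the count of factors that passed was 1 with DESeq2, 1 without the filter, and 1 to 3 with a library left out. Histone genes that fell in mRNA sequencing numbered 9 of 47 in the abundance table and 13 to 37 with a library left out (37 without control 8.6.16). In RNAome sequencing they numbered 64 with DESeq2, 64 in the abundance table and 27 to 63 with a library left out, with 27 without cisplatin 8.4.3 and 37 without cisplatin 8.3.3. Partner genes in RNAome sequencing numbered 0 to 1, and 1 (Cdk1) without control 8.4.16. The cause of these differences was not tested. With the sample code as a replicate block, the test of a difference between assays called 0 factors (adjusted p 0.957 to 0.996) and 13 of 13070 genes, all lower, against 0 genes without the pairing. Values near 0 changed sign. In mRNA sequencing Slbp was at -0.00063 with RLE scaling, -0.0077 with DESeq2, -0.0044 without the filter, -0.0096 in the abundance table, and -0.026 without cisplatin 8.3.3 and -0.034 without control 8.5.16. There Eri1 reached 0.019 and Rnu7 -0.0062. In RNAome sequencing the sign changed with a library left out for Slbp (0.019), Npat (0.013), Casp8ap2 (-0.034), Lsm10 (-0.21), Lsm11 (-0.31), Sympk (0.0095 and 0.093), Acta2 (0.15) and Rnu7 (-0.16). RNAome libraries held 4 to 382 counts per factor, and the part of these counts in the precision there was not tested. The order of Slbp and Cpsf3 in the abundance tables was added after seeing the data.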

Other observations

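The proteins that take up newly made histones were followed as a list of 10 chaperone genes. In mRNA sequencing 4 fell and 0 rose (40% called, beside 37.2% of all genes), with a median log2 change of -0.10. Nasp, the carrier of soluble H3 and H4, was at 848.7, 808.3 and 821.6 CPM under cisplatin and at 1036, 953.9 and 1007 CPM in controls, and fell by 0.27 (SE 0.04, adjusted p = 0.000188). Hira, which deposits the replacement histone H3.3 outside replication, fell by 0.40 (adjusted p = 6.44e-05), Asf1a by 0.35 (adjusted p = 0.00169) and Rbbp7 by 0.24 (adjusted p = 0.000793). In RNAome sequencing 0 of the 10 passed edgeR's test and 0 had an unadjusted p under 0.05.

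Of 19 genes of S phase and DNA replication, 5 fell and 1 rose in mRNA sequencing (31.6% called, beside 37.2% of all genes), and their summed level was 5224 to 5359 CPM under cisplatin and 5502 to 5672 CPM in controls. Pola1, the catalytic subunit of DNA polymerase alpha, was at 123.1, 122.0 and 118.3 CPM under cisplatin and at 197.7, 205.0 and 171.3 CPM in controls, and fell by 0.66 (SE 0.06, adjusted p = 3.18e-06). Mcm6 and Mcm3, subunits of the replicative helicase, fell by 0.25 and 0.17, as did Uhrf1 by 0.16 and Mcm2 by 0.12, both named after their values were seen, and Rrm2, a ribonucleotide reductase subunit, rose by 0.31. With a library left out, the call of Uhrf1 held in 3 of 6 fits (lost when control 8.6.16 or either cisplatin 8.4.3 or 8.5.3 was absent, adjusted p up to 0.0754) and that of Mcm2 in 1 of 6 (held without control 8.5.16, adjusted p up to 0.147). In RNAome sequencing 0 of the 19 passed edgeR's test, 1 had an unadjusted p under 0.05, and the summed levels of the groups overlapped (363.8 to 387.2 against 356.4 to 404.6 CPM). The part of cell cycle stage in the values of the histone factors was not tested.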
